A study of Mus musculus with 45 samples.

Results

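The 33 genes described here encode enzymes of DNA methylation and demethylation, histone deacetylases and sirtuins, polycomb and H3K27 proteins, and corepressor scaffolds. They were taken as a list by enzyme class: 4 genes of DNA methylation, 3 TET dioxygenases, 11 histone deacetylases, 7 sirtuins, 6 polycomb and H3K27 genes and 2 corepressor scaffolds. All 33 were rows of the deposited table of 23420 genes, and all 33 were among the 14668 genes that passed the filter on low counts. The list was not chosen by any measured value in its rule, but it was drawn up with earlier results of these data known.

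DNA methyltransferases place methyl groups on cytosines of CpG sites, Uhrf1 brings the maintenance enzyme Dnmt1 to newly replicated DNA, and TET dioxygenases oxidise the methyl group so that it can be lost. Histone deacetylases remove acetyl groups from histones in complexes built on scaffolds such as Sin3a and Ncor1. Sirtuins work at the expense of NAD, and not all of them act on histones. The polycomb repressive complex that holds Eed and Suz12 methylates lysine 27 of histone H3, with Ezh2 or Ezh1 as the catalytic subunit. Bmi1 belongs to another polycomb complex. In regulatory T cells (Tregs), CD4 T cells that depend on Foxp3 and hold back immune responses, demethylation of Foxp3 enhancer DNA by TET enzymes keeps Foxp3 expressed, and Ezh2 is known to be induced on activation.

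RNA was sequenced from sorted T cells of mice with B16 melanoma, a transplantable skin tumour. Tumour Tregs were labelled N, HetNrp1def, HetWT and WT, the same 4 sets were also taken from lymph nodes that did not drain the tumour, and tumours gave the effector T cells (Teff), all with the genotype label WT. HetNrp1def and HetWT were read as the Nrp1-deficient and Nrp1-sufficient Tregs of heterozygous mice, and WT as Tregs of wild-type mice. The N samples carry the same genotype label as HetNrp1def and were kept apart by their titles, and the study's design text names homozygous deficient mice as well. The deletion's driver, the mice's age and sex, and any pooling of animals were not given in the sources used here. Each Treg library came from 5000 cells sorted either singly (replicates 2, 3 and 4) or doubly (replicates ds1 and ds2). The labels do not tie replicates to separate animals, so the p-values reflect only how these samples spread, and that spread may be technical.

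The 45 libraries held between 2945638 and 35787148 counts (median 10248080), and the 9 ds2 libraries were the shallowest at 2945638 to 5408375. In 4 pairs of libraries of 1 group the counts differed by little more than counting noise, so each pair was summed, which left 41 samples: 18 tumour Treg, 18 lymph node Treg and 5 effector samples. Levels are in CPM, counts scaled to library size with TMM factors. The summed level of 5 Treg markers (Foxp3, Ikzf2, Il2ra, Ctla4 and Tnfrsf18) was 3550 to 9491 CPM in tumour Tregs and 1854 to 4918 CPM in lymph node Tregs, against 108 to 278 CPM in effector cells, so the Treg label fitted its markers. Nrp1 itself had a median of 157 CPM in N, 126 CPM in HetNrp1def, 147 CPM in HetWT and 131 CPM in WT tumour Tregs. In lymph node Tregs the median Nrp1 level was 187 CPM in N, 151 CPM in HetNrp1def, 337 CPM in HetWT and 388 CPM in WT. Which exons were deleted is not given in the sources used here, so reads of the gene as a whole are a weak check of the labels.

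Per kilobase of exon, averaged over the 41 samples, the most abundant members were the corepressor scaffold Ncor1 (43.4 CPM per kb), the class I deacetylase Hdac1 (40.2 CPM per kb) and the polycomb core subunits Suz12 (36.9 CPM per kb) and Eed (33.0 CPM per kb). Bmi1, the ring-finger partner of the other polycomb complex, stood at 23.2 CPM per kb. The nucleolar sirtuin Sirt7 stood at 22.9 CPM per kb, Hdac2 at 21.1, Hdac3 at 20.3 and Ezh2 at 20.2 CPM per kb. At the other end, the class IIa deacetylase Hdac9 stood at 0.209 CPM per kb, the class IV enzyme Hdac11 at 0.474 CPM per kb, Tet1 at 0.771 CPM per kb and Hdac8 at 0.981 CPM per kb. Hdac11 had no count in 6 samples and Hdac8 none in 3. Samples ranged from 0 to 8.78 CPM for Hdac11 and from 0 to 24.4 CPM for Hdac8, so small differences in these genes were not detectable. Levels also differed within a class: Hdac7 (15.9 CPM per kb) and Hdac9 are both class IIa enzymes, and Tet3 (5.65 CPM per kb) and Tet2 (3.70 CPM per kb) both stood above Tet1. The strand setting of the counting is not given in the sources used here, so members whose exons share bases with another gene are uncertain, mainly Hdac4 (22.4% of exon bases), Hdac11 (17.9%), Sirt3 (12.7%) and Eed (6.82%). For Ezh2 the share was 2.61%, and for Uhrf1, Tet1, Tet3 and Hdac2 it was 0.

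**Figure D1:**
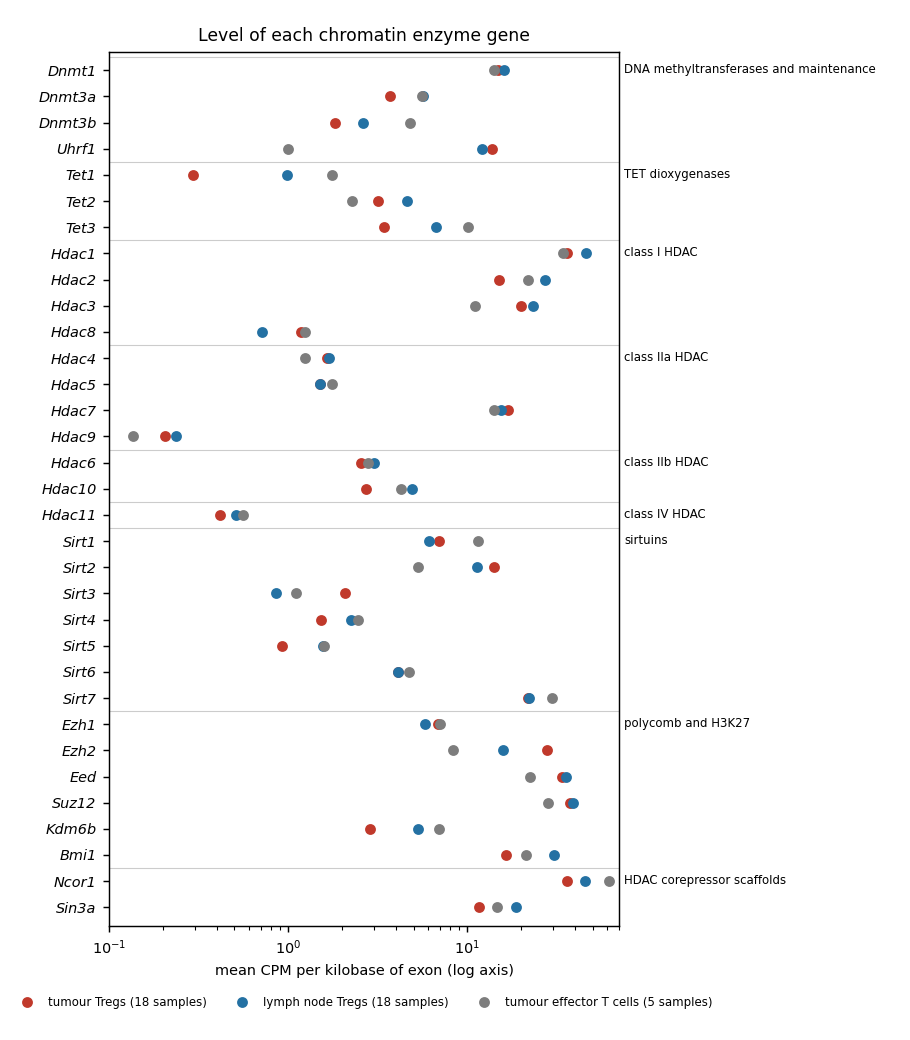
Mean level of each of the 33 genes, in CPM per kilobase of exon on a log axis, in tumour Tregs, lymph node Tregs and tumour effector T cells, by enzyme class. Ncor1, Hdac1, Suz12 and Eed lie to the right in all 3 cell pools, Hdac9 and Hdac11 lie to the left, and Uhrf1 lies at 13.6 CPM per kb in tumour Tregs and 12.03 CPM per kb in lymph node Tregs, far right of effector cells at 0.996 CPM per kb.

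The 6 genes that passed a test below lie, in mm10 with GENCODE vM21 genes, at chr6:47530139-47595341 (Ezh2, minus strand), chr17:56303321-56323486 (Uhrf1, plus strand), chr10:62804570-62908996 (Tet1, minus strand), chr6:83362373-83459084 (Tet3, minus strand), chr10:36974544-37001889 (Hdac2, plus strand) and chr11:62316426-62458541 (Ncor1, minus strand). The results turn mainly on 4 genes that moved in opposite directions, Ezh2 and Uhrf1 on the one side and Tet1 and Tet3 on the other. Of these, Uhrf1 passed against effector cells alone and not between tissues. The DNA before the starts of these 4 genes is shown so that their CpG content and motifs can be compared. The windows are the 250 bases before each RefSeq start (GRCm38.p6), 5′ to 3′ on the gene's strand. For Tet1, Tet3 and the second Uhrf1 window this start lies inside the GENCODE gene span, so these windows do not precede the outermost start. The Ezh2 window and the first Uhrf1 window lie at the edge of the gene span. They are chr6:47595031-47595280 (minus strand) for Ezh2, chr17:56303087-56303336 and chr17:56304063-56304312 (plus strand) for 2 starts of Uhrf1, chr10:62887325-62887574 (minus strand) for Tet1 and chr6:83441679-83441928 (minus strand) for Tet3. Capitals mark matches on either strand to an E2F motif (TTTNNCGC), a GC box (GGGCGG) or a CCAAT box (CCAAT), none of which overlapped another in these windows.
Ezh2: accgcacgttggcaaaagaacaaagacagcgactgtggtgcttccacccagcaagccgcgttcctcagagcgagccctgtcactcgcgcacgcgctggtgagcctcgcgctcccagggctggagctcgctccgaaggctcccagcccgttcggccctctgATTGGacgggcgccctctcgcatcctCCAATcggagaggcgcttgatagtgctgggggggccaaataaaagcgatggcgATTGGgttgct
Uhrf1, first start: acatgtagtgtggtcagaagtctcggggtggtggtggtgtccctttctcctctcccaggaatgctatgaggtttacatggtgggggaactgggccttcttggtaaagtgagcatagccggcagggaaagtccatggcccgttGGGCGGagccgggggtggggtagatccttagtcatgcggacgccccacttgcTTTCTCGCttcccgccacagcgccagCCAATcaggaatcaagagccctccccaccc
Uhrf1, second start: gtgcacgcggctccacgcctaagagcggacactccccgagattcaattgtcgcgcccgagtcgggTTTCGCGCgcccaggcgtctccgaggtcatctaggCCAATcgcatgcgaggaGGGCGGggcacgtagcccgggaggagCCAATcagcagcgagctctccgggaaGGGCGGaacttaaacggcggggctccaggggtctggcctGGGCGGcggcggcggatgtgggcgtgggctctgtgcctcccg
Tet1: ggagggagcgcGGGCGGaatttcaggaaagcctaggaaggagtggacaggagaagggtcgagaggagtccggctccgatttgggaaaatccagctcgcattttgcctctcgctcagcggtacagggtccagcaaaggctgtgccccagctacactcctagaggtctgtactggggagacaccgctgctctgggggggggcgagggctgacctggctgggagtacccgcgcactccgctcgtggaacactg
Tet3: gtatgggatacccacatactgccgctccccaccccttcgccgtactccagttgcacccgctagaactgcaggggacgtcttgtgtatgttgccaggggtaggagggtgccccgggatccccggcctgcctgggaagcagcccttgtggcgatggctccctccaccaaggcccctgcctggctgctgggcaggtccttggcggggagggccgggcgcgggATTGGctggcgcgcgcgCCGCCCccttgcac
The Ezh2 window held 23 CpG sites and 3 CCAAT boxes, 90, 64 and 11 bases before the start, with no E2F or GC box match. The 2 Uhrf1 windows held 10 and 30 CpG sites and 1 E2F match each, TTTCTCGC at 56 bases and TTTCGCGC at 185 bases before their starts. Tet1 had 15 and Tet3 had 17 CpG sites, with no E2F match in either. Over all 32851 windows of this length the median was 6 CpG sites, the E2F motif was in 4.28%, the GC box in 32.7% and the CCAAT box in 33.8%. RefSeq windows were matched for 29 of the 33 members (42 windows), and 6 of these 42 windows, in Dnmt1, Uhrf1, Sirt3, Sirt4 and Suz12, held an E2F match (14.3%). A match describes the letters and not a site in use.

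The first comparison asked how Tregs in the tumour differ from Tregs in the lymph node, averaged over the 4 Treg sets. In tumour Tregs the H3K27 methyltransferase Ezh2 was 1.75-fold higher, while the DNA demethylation enzymes Tet1 and Tet3 and the class I deacetylase Hdac2 were lower, by 3.17-fold, 1.88-fold and 1.87-fold. These 4 of 33 members passed the test (edgeR's quasi-likelihood test, Benjamini-Hochberg adjusted p below 0.05 over all genes tested), 1 higher and 3 lower. Over all 14668 genes, 11.2% passed, so the share of members called was near the background. The median log2 fold change was -0.11 over the members and -0.08 over all genes. In bulk samples of sorted cells, fewer cells of a type that express a gene and less RNA of it per cell cannot be told apart.

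Ezh2 was 86.6 CPM in the lowest, 157 CPM in the median and 480 CPM in the highest tumour Treg sample, against 51.0, 99.2 and 161 CPM in lymph node Tregs. In replicate order 2, 3, 4, ds1 and ds2, it was 161, 139, 132, 480 and 88.9 CPM in N tumour Tregs, against 53.0, 157, 161, 155 and 80.3 CPM in N lymph node Tregs. In WT it was 177, 177, 153, 412 and 88.1 CPM in tumour Tregs, against 88.8, 148, 144, 99.6 and 75.5 CPM in lymph node Tregs. The ranges overlapped: 8 of 18 tumour samples lay above every lymph node sample and 15 of 18 above the lymph node median. The 2 highest values were the ds1 samples of N and WT tumours, and the 3 samples below the lymph node median were ds2 samples. In the heterozygous sets, with replicates 2, 3, 4 and ds2 in the tumour and 2, 4, ds1 and ds2 in the lymph node, Ezh2 was 165, 225, 153 and 86.6 CPM in HetNrp1def tumour Tregs, against 113, 90.6, 116 and 51.0 CPM in HetNrp1def lymph node Tregs. In HetWT it was 121, 211, 217 and 148 CPM in tumour Tregs, against 119, 97.6, 98.9 and 60.6 CPM in lymph node Tregs. The HetWT tumour samples all lay above the HetWT lymph node samples. The averaged log2 fold change was 0.81 (SE 0.24, adjusted p = 0.0164). It was 0.57 among single-sorted samples (SE 0.20, adjusted p = 0.0584) and 0.88 among double-sorted samples (SE 0.71, adjusted p = 0.984), and that difference was not tested. Limma on the deposited log2 values gave 0.27 (adjusted p = 0.473).

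Tet1, a TET dioxygenase of low level, was 0 to 17.8 CPM in tumour Tregs (median 4.33 CPM), against 1.98 to 40.8 CPM in lymph node Tregs (median 8.69 CPM). Of the 18 tumour samples, 17 lay below the lymph node median and 7 below every lymph node sample, and the exception was HetWT replicate 2 at 17.8 CPM. The averaged log2 fold change was -1.66 (SE 0.54, adjusted p = 0.0353). Tet3, the most abundant TET gene per kilobase, was 12.6 to 92.8 CPM in tumour Tregs (median 57.9 CPM), against 5.07 to 291 CPM in lymph node Tregs (median 109 CPM). All 18 tumour samples lay below the lymph node median, although 1 lymph node sample, HetWT ds1 at 5.07 CPM, was the lowest of all. Its log2 fold change was -0.91 (SE 0.27, adjusted p = 0.0184). Tet2, whose loss is known to drive clonal blood growth, was 29.5 to 83.5 CPM in tumour Tregs (median 51.3 CPM), against 15.5 to 228 CPM in lymph node Tregs (median 73.4 CPM), and did not pass (log2 fold change -0.54, SE 0.29, adjusted p = 0.273).

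Hdac2 and Hdac1 are the paired catalytic subunits of the Sin3, NuRD and CoREST complexes. Hdac2 was 9.06 to 134 CPM in tumour Tregs (median 67.4 CPM), against 12.3 to 331 CPM in lymph node Tregs (median 111 CPM). All but 1 of the 18 tumour samples, WT ds1 at 134 CPM, lay below the lymph node median. Its log2 fold change was -0.90 (SE 0.29, adjusted p = 0.0290), while that of Hdac1 was -0.35 (SE 0.20, adjusted p = 0.301). Hdac1 was 79.9 to 234 CPM in tumour Tregs and 102 to 350 CPM in lymph node Tregs, and it passed among single-sorted samples alone (-0.48, adjusted p = 0.0401).

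These tissue calls differed in how near they lay to the threshold when single samples were left out. Some calls were lost with little change in value, as for Tet1 without HetWT tumour replicate 4 (log2 fold change -1.68, against -1.66 with all samples). Ezh2 passed whichever of the 41 samples was left out. Tet1 failed without any one of 9 samples, with log2 fold changes of -1.68 to -1.44 and adjusted p of 0.0504 to 0.0951: WT tumour replicate 2, HetNrp1def tumour replicate 3, HetWT tumour replicates 3, 4 and ds2, WT lymph node replicate 2, N lymph node ds2, HetNrp1def lymph node ds2 and HetWT lymph node replicate 2. Tet3 failed without any one of 9 samples, with log2 fold changes of -0.87 to -0.77 and adjusted p of 0.0505 to 0.0803: WT tumour replicate 4, HetNrp1def tumour replicates 2, 3 and 4, HetWT tumour replicates 3 and 4, HetNrp1def lymph node replicate 4 and HetWT lymph node replicates 2 and ds2. Hdac2 failed without any one of 16 samples, with log2 fold changes of -0.88 to -0.70 and adjusted p of 0.0514 to 0.0895: WT tumour replicates 3 and 4, all 4 HetNrp1def tumour samples, HetWT tumour replicates 2, 3 and 4, WT lymph node ds1, HetNrp1def lymph node replicates 2, 4 and ds2, and HetWT lymph node replicates 2, 4 and ds2. Among single-sorted samples the log2 fold changes were -2.06 for Tet1 (adjusted p = 0.0355), -0.63 for Tet3 (adjusted p = 0.0364) and -0.78 for Hdac2 (adjusted p = 0.0248). Among double-sorted samples they were -1.49 for Tet1 (adjusted p = 0.984), -1.31 for Tet3 (adjusted p = 0.955) and -1.05 for Hdac2 (adjusted p = 0.984). None of the 3 passed without the filter on low counts (adjusted p of 0.0524 to 0.0764) or without the ds2 libraries (0.0984 to 0.196), and limma on the deposited log2 values called Hdac2 but neither Tet1 (-1.43, adjusted p = 0.0643) nor Tet3 (-0.35, adjusted p = 0.306).

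Marker lists of 2 other cell types moved with the tissue. The summed level of 5 melanoma markers was 3.34 to 3373 CPM in tumour Tregs (median 31.8 CPM), against 0.317 to 71.6 CPM in lymph node Tregs, all 5 passed the test as higher in the tumour, and 8 of 18 tumour samples lay above every lymph node and effector sample. The N and WT ds1 tumour samples, where Ezh2 was highest, had melanoma sums of 3.34 and 7.68 CPM. The summed level of 5 B cell markers was 3.02 to 39.7 CPM in tumour Tregs (median 15.6 CPM), against 1.74 to 618 CPM in lymph node Tregs (median 181 CPM), and 4 of 5 were lower in the tumour. Their part in the Tet1, Tet3, Hdac2 and Ezh2 differences was not tested.

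The other 29 members did not pass, with log2 fold changes between -0.90 and 1.14. Among the DNA methylation genes, the maintenance enzyme Dnmt1 had a log2 fold change of -0.10 (SE 0.24), the de novo enzymes Dnmt3a and Dnmt3b -0.39 (SE 0.29) and -0.48 (SE 0.50), and Uhrf1 0.23 (SE 0.40). The remaining class I enzymes Hdac3, the catalytic subunit of the NCoR complex, and Hdac8 had -0.11 (SE 0.32) and 1.05 (SE 0.81). The signal-regulated class IIa enzymes Hdac4, Hdac5, Hdac7 and Hdac9 lay between -0.13 and 0.13. The class IIb enzymes Hdac6, a cytoplasmic tubulin deacetylase, and Hdac10 had -0.22 (SE 0.49) and -0.86 (SE 0.56), and Hdac11 had -0.07 (SE 0.81). Of the 7 sirtuins none passed: Sirt7 stood at 0.00 (SE 0.28) and Sirt1 near 0 (SE 0.42), Sirt2 at 0.33 (SE 0.32), the mitochondrial Sirt3 at 1.14 (SE 0.65), Sirt4 at -0.48 (SE 0.63), Sirt5 at -0.38 (SE 0.60) and Sirt6 at 0.24 (SE 0.44).

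Within the polycomb group Ezh2 was the only one of 6 genes to pass. Its partners Eed, which binds the H3K27 mark, and Suz12, the scaffold of the complex, each had a log2 fold change of -0.04 (SE 0.26 and 0.21), and the alternative catalytic subunit Ezh1 had 0.28 (SE 0.41). Kdm6b, a demethylase that removes the mark, was 5.61 to 70.3 CPM in tumour Tregs (median 15.1 CPM), against 3.46 to 150 CPM in lymph node Tregs (median 28.6 CPM), and did not pass (log2 fold change -0.90, SE 0.39, adjusted p = 0.145). Bmi1 had -0.75 (SE 0.33, adjusted p = 0.147), Sin3a -0.67 (SE 0.29, adjusted p = 0.143) and Ncor1 -0.30 (SE 0.17, adjusted p = 0.312). Without the ds1 libraries that had not been summed with another, 6 members passed, against 17.1% of all genes in that fit. Sirt2 (log2 fold change 0.67, adjusted p = 0.0176) and Kdm6b (-1.06, adjusted p = 0.0186) were added to the 4. Among single-sorted samples alone 6 also passed, against 12.8% of all genes: Hdac2, Tet1, Tet3, Hdac1, Kdm6b and Sirt2. The differences between the log2 fold change of Ezh2 and those of its partners were not tested.

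**Figure D2:**
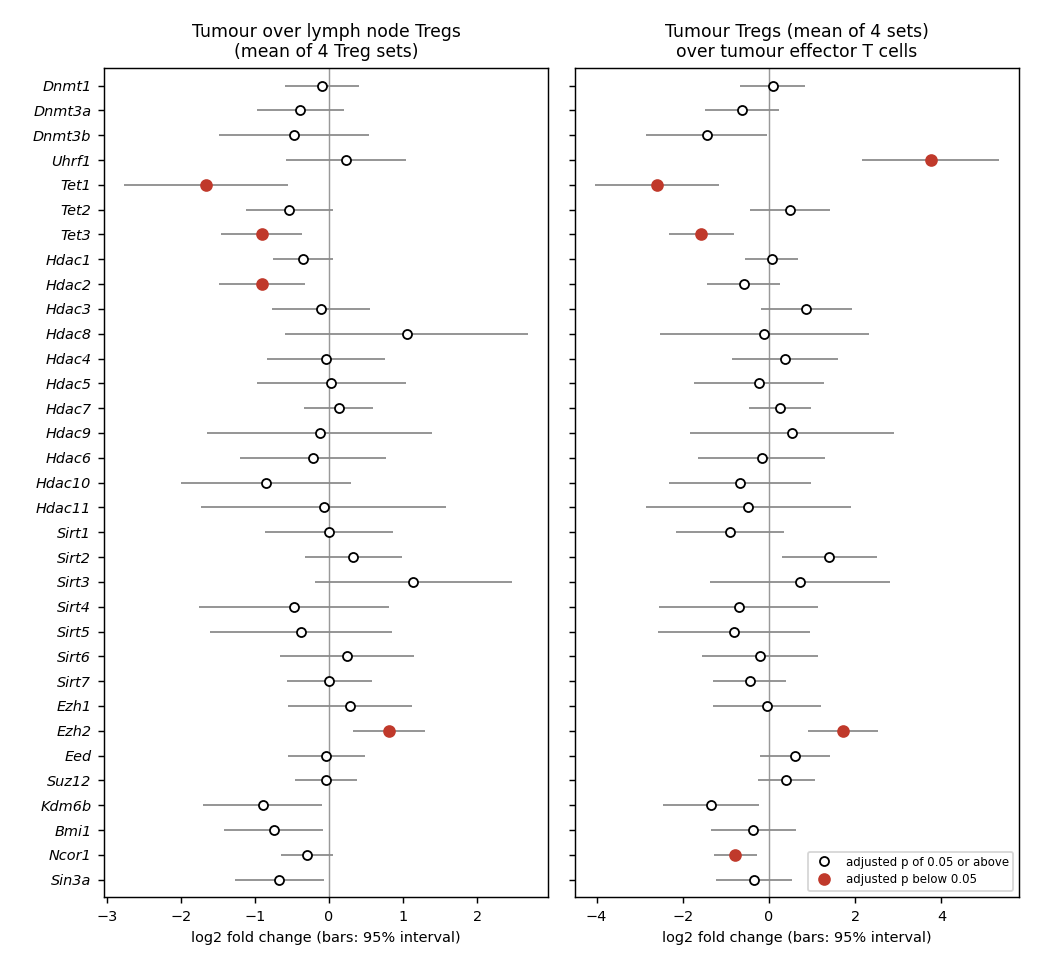
Log2 fold change of each gene with its 95% interval, for tumour over lymph node Tregs (left) and for tumour Tregs over tumour effector T cells (right). Filled points passed at an adjusted p below 0.05: Ezh2 to the right of 0 in both panels and Tet1 and Tet3 to the left of 0 in both, with Hdac2 in the left panel and Uhrf1 and Ncor1 in the right panel alone.

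Taken set by set, the tissue contrast called 0 of 33 members in each of N, HetNrp1def, HetWT and WT Tregs with edgeR, where 0.791%, 0.654%, 0.239% and 0.873% of all genes passed. At an unadjusted p below 0.05, 2 members passed in N, 4 in HetNrp1def, 2 in HetWT and 3 in WT, against 9.5%, 11.3%, 8.12% and 10.4% of all genes. DESeq2 called 2 members in HetNrp1def, Dnmt3a (log2 fold change -2.41) and Ncor1 (-1.39), against 5.98% of all genes, and none in the other 3 sets. Both were highest in 1 lymph node library, HetNrp1def ds1, with Dnmt3a at 566 CPM (the other 3 at 54.3 to 130 CPM) and Ncor1 at 1527.5 CPM (the other 3 at 457 to 732 CPM). Without that library edgeR gave -0.59 for Dnmt3a and -0.45 for Ncor1, against -1.87 and -0.99 with it. The log2 fold change of Ezh2 was 0.72 in N, 0.77 in HetNrp1def, 0.89 in HetWT and 0.86 in WT Tregs, the narrowest spread among the 4 genes called in the average. With RLE size factors in place of TMM it was 0.88, 0.51, 0.78 and 1.04 in the same order. The N value includes the ds1 tumour sample at 480 CPM, and the N median of Ezh2 was lower in tumour (139 CPM) than in lymph node (155 CPM). Tumour and lymph node medians were 159 and 102 CPM in HetNrp1def, 180 and 98.2 CPM in HetWT, and 177 and 99.6 CPM in WT. Tet1 was -2.30 in N, -2.35 in HetNrp1def, -1.12 in HetWT and -0.88 in WT. Hdac2 was -0.76 in N, -1.03 in HetNrp1def, -1.44 in HetWT and -0.39 in WT. Tet3 was -1.14 in N, -1.23 in HetNrp1def and -1.33 in WT but 0.05 in HetWT, the set whose ds1 lymph node sample had 5.07 CPM. Over all members, 2 (Ezh2 and Sirt3) had values above 0 in all 4 sets, 8 (Tet1, Tet2, Hdac1, Hdac2, Hdac10, Sirt4, Kdm6b and Sin3a) had values below 0 in all 4, and 23 were mixed. RLE size factors moved the median of all genes by 0.11 in N, -0.12 in HetNrp1def, -0.11 in HetWT and 0.12 in WT, and with them 2 members lay above 0 and 7 below 0 in all 4 sets, Tet2 and Kdm6b no longer and Hdac6 now among the 7.

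**Figure D3:**
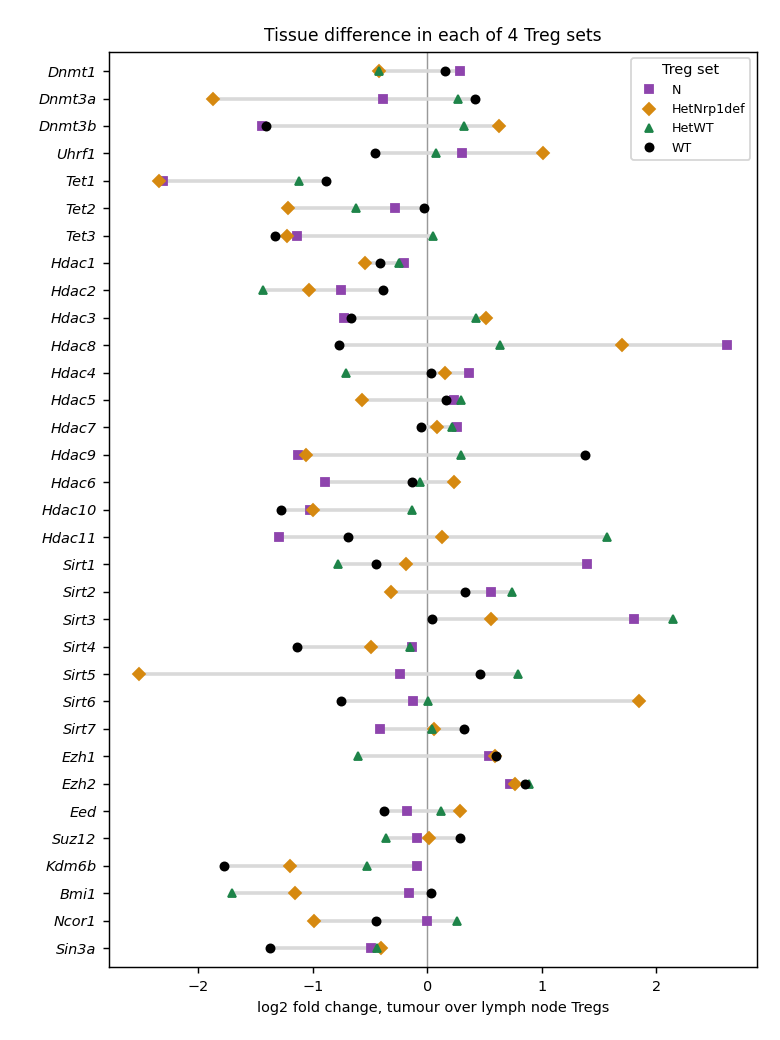
Log2 fold change of each gene, tumour over lymph node Tregs, in the N, HetNrp1def, HetWT and WT sets, joined by a grey bar. The 4 points of Ezh2 lie between 0.72 and 0.89, while those of Dnmt3a, Sirt5, Sirt6 and Hdac8 spread on both sides of 0. The N point of Ezh2 includes the ds1 tumour sample at 480 CPM.

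The second comparison set tumour Tregs, averaged over the 4 sets, against effector T cells sorted from tumours and labelled WT. Uhrf1, which recruits Dnmt1 to hemimethylated DNA, was 13.4-fold higher in tumour Tregs, and Ezh2 was 3.29-fold higher. Tet1 was 6.03-fold, Tet3 2.97-fold and the corepressor scaffold Ncor1 1.72-fold lower in tumour Tregs. These 5 of 33 members passed, 2 higher and 3 lower, against 11.2% of all genes, 796 higher and 850 lower. The median log2 fold change was -0.21 over the members and -0.13 over all genes. In 3 of 33 members, Uhrf1, Tet1 and Tet3, no tumour Treg sample overlapped with an effector sample, against 3.42% of all genes tested. The tumour Treg samples are the same as in the tissue comparison, so the 2 comparisons are not independent.

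Uhrf1 was 16.1 to 115 CPM in tumour Tregs (median 57.3 CPM), against 11.01, 0.645, 5.02, 4.53 and 0 CPM in effector replicates 2, 3, 4, ds1 and ds2. Every tumour Treg sample lay above every effector sample, and 15 of 18 lymph node Treg samples, which ranged from 5.60 to 154 CPM, did so too. The log2 fold change was 3.75 (SE 0.78, adjusted p = 0.000469). Dnmt1, the enzyme that Uhrf1 brings to DNA, was 36.3 to 198 CPM in tumour Tregs (median 96.7 CPM), against 92.6, 112, 48.1, 165 and 102 CPM in effector cells. All 5 effector samples lay within the tumour Treg range, with a log2 fold change of 0.08 (SE 0.37, adjusted p = 0.931). Dnmt3a had -0.62 (SE 0.42, adjusted p = 0.403) and Dnmt3b -1.44 (SE 0.69, adjusted p = 0.194).

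Ezh2 was 86.6 to 480 CPM in tumour Tregs, against 87.5, 27.7, 48.1, 77.0 and 36.9 CPM in effector cells, and 17 of the 18 tumour Treg samples lay above all 5 effector samples. The exception was HetNrp1def ds2 at 86.6 CPM, below effector replicate 2 alone. The log2 fold change was 1.72 (SE 0.40, adjusted p = 0.00192). Its partners Suz12 (log2 fold change 0.40, SE 0.32, adjusted p = 0.500), Eed (0.60, SE 0.40, adjusted p = 0.402) and Ezh1 (-0.05, SE 0.61) did not pass.

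Tet1 was at most 17.8 CPM in tumour Tregs, below all 5 effector samples at 29.6, 29.5, 24.5, 30.5 and 20.9 CPM. The log2 fold change was -2.59 (SE 0.71, adjusted p = 0.00938). Tet3 was at most 92.8 CPM in tumour Tregs, below all 5 effector samples at 201, 140, 165, 136 and 197 CPM, with a log2 fold change of -1.57 (SE 0.37, adjusted p = 0.00230). Tet2 went the other way without passing (log2 fold change 0.48, SE 0.45, adjusted p = 0.584). Uhrf1, Ezh2, Tet1 and Tet3 passed whichever single sample was left out, but Tet3 did not pass without the ds2 libraries (-1.49, adjusted p = 0.0607). With limma on the deposited log2 values Uhrf1 passed (2.30, adjusted p = 0.00533), while Ezh2 (0.90, adjusted p = 0.0819), Tet1 (-1.70, adjusted p = 0.256) and Tet3 (-0.72, adjusted p = 0.201) did not. Among single-sorted samples alone their log2 fold changes were 3.71, 1.64, -2.77 and -1.48 and all 4 passed, while among double-sorted samples they were 3.77, 1.73, -2.79 and -1.60 and none passed (adjusted p of at least 0.913).

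Ncor1, the scaffold that activates Hdac3, was 317 to 765 CPM in tumour Tregs (median 441 CPM), against 484, 769, 777, 1166 and 754 CPM in effector cells. All 18 tumour samples lay below the effector median, and 13 of 18 lay below every effector sample. The log2 fold change was -0.78 (SE 0.25, adjusted p = 0.0295). The call was lost without effector replicate 3 (log2 fold change -0.79, adjusted p = 0.0566), replicate 4 (-0.72, adjusted p = 0.0552) or ds1 (-0.59, adjusted p = 0.198). It was also lost in 6 of 10 other settings: RLE size factors (adjusted p = 0.0915), no filter on low counts (0.0967), DESeq2 (0.0980), no ds2 libraries (0.0888), double-sorted samples alone (0.913) and limma on the deposited log2 values (-0.26, adjusted p = 0.545). Hdac3 (log2 fold change 0.86, SE 0.52, adjusted p = 0.336) and Sin3a (-0.35, SE 0.43, adjusted p = 0.693) did not pass.

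**Figure D4:**
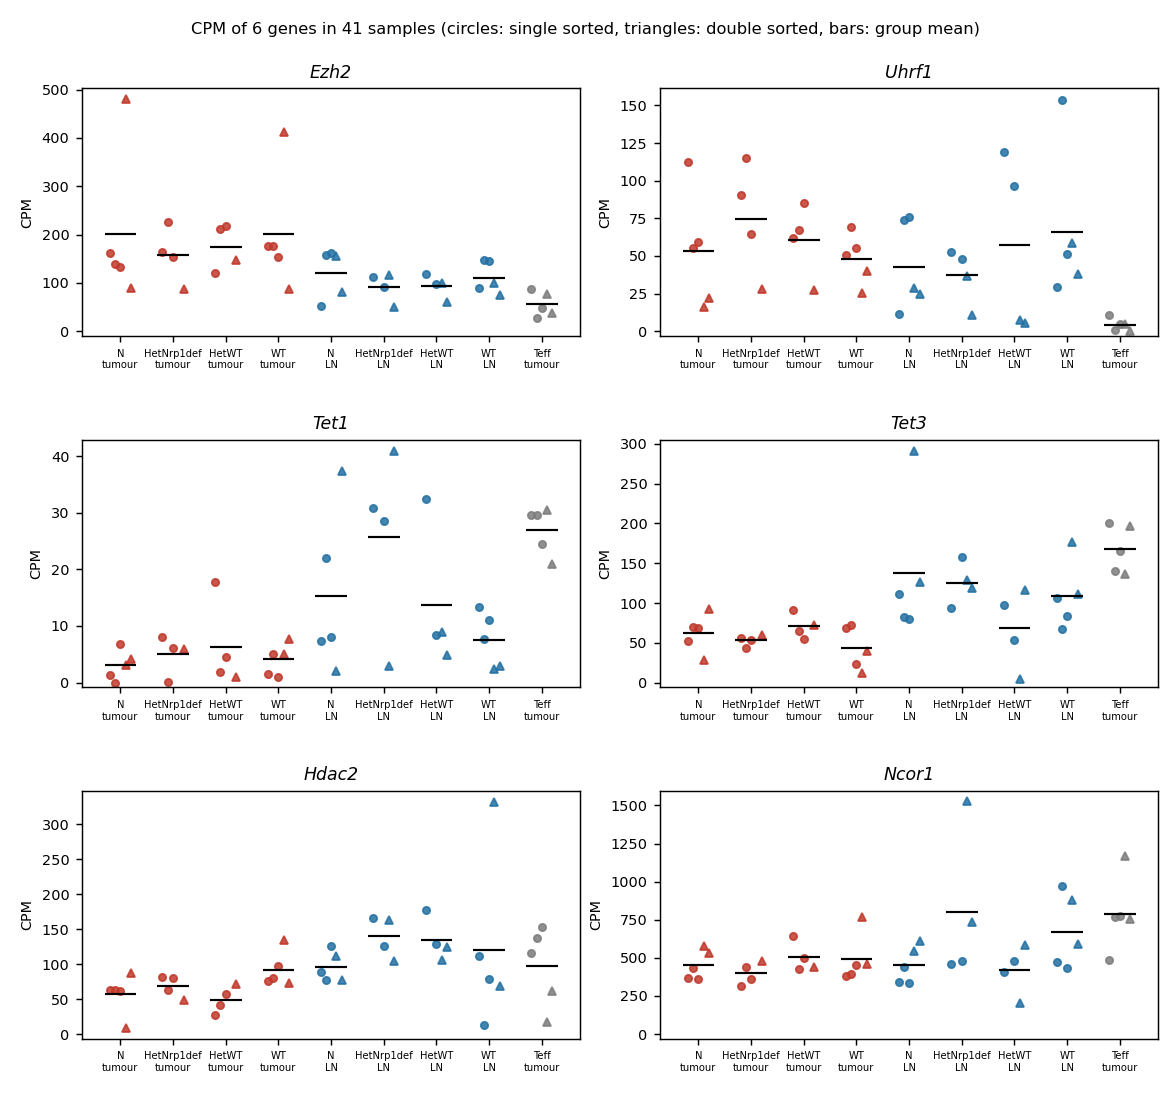
CPM of the 6 genes that passed in either comparison, in each of 41 samples by group, with tumour Tregs in red, lymph node Tregs in blue and effector T cells in grey. Uhrf1 is at or above 16.1 CPM in all tumour Treg samples and at or below 11.01 CPM in all 5 effector samples, Tet1 and Tet3 are lower in every tumour Treg sample than in any effector sample, and the highest Ezh2 values are 2 double-sorted tumour samples.

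Of the remaining members none passed against effector cells. Kdm6b had the lowest adjusted p among those with a lower value in tumour Tregs after Ncor1 (log2 fold change -1.35, SE 0.55, adjusted p = 0.107), at 5.61 to 70.3 CPM in tumour Tregs, against 27.1 to 82.3 CPM in effector cells. Sirt2, a cytoplasmic NAD-dependent deacetylase, was 28.8 to 108 CPM in tumour Tregs, against 1.94 to 39.2 CPM in effector cells (log2 fold change 1.40, SE 0.54, adjusted p = 0.0851). DESeq2 called Sirt2 (1.48, adjusted p = 0.0172). Without the ds1 libraries that had not been summed, 8 members passed, against 16.8% of all genes in that fit. Sirt2 (1.15, adjusted p = 0.0125), Kdm6b (-1.40, adjusted p = 0.0271) and Hdac2 (-0.81, adjusted p = 0.0484) were among them. Among single-sorted samples alone 6 members passed, against 14.1% of all genes, and Hdac2 (-1.07, adjusted p = 0.0267) was again among them, but its value was 0.71 among double-sorted samples (SE 1.23). Bmi1 had -0.37 (SE 0.48), Hdac1 0.06 (SE 0.30), Hdac8 -0.11 (SE 1.19), Hdac10 -0.67 (SE 0.81), Hdac6 -0.17 (SE 0.72) and Hdac11 -0.48 (SE 1.17). Class IIa enzymes lay between -0.23 (Hdac5) and 0.53 (Hdac9), and the sirtuins other than Sirt2 lay between -0.91 (Sirt1) and 0.73 (Sirt3).

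In WT tumour Tregs alone, 3 of 33 members passed against effector cells, against 5.71% of all genes. Uhrf1 had a log2 fold change of 3.48 (SE 0.83, adjusted p = 0.00399), Ezh2 1.86 (SE 0.46, adjusted p = 0.00569) and Tet3 -1.95 (SE 0.52, adjusted p = 0.0128). The Tet3 call was lost without WT tumour replicate 4 or effector replicate 2 (adjusted p up to 0.0700) and without the ds2 libraries (-1.82, adjusted p = 0.173). None of the 3 passed among double-sorted samples alone or with limma on the deposited log2 values.

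Like Uhrf1 and Ezh2, genes of replication and cell division were higher in tumour Tregs than in effector cells. Whether their levels moved together from sample to sample was not tested. The summed level of 12 such genes was 1342 to 2743 CPM in tumour Tregs (median 1996 CPM) and 619 to 3427 CPM in lymph node Tregs (median 1405 CPM), against 154 to 609 CPM in effector cells (median 365 CPM). Against effector cells 10 of the 12 were higher in tumour Tregs, with a list median log2 fold change of 4.44, among them the proliferation marker Mki67 (4.91, SE 0.44), the topoisomerase Top2a (4.46, SE 0.52), the cyclin-dependent kinase Cdk1 (7.80, SE 0.97) and the cyclins Ccnb2 (7.59, SE 0.80) and Ccna2 (5.19, SE 0.77). Between tissues, Tyms (0.97, SE 0.28, adjusted p = 0.0152) and Ccnb2 (0.95, SE 0.33, adjusted p = 0.0481) passed as higher in the tumour, and all 12 had values above 0 (list median 0.50). The part of cell division in the Uhrf1 and Ezh2 differences was not tested. Melanoma markers also differed, with 4 of 5 higher in tumour Tregs than in effector cells, where their sum was 2.92 to 74.7 CPM. The sum of 6 macrophage and myeloid markers was 0 to 183 CPM in tumour Tregs (median 47.6 CPM), against 2.00 to 16.4 CPM in effector cells (median 9.03 CPM), with 1 of 6 passing as higher. The sum of 2 CD8 T cell markers was 15.9 to 224 CPM in tumour Tregs (median 92.1 CPM), against 2.81 to 75.8 CPM in effector cells (median 28.7 CPM), with neither passing, and 2 of 5 B cell markers were lower in tumour Tregs. The part of these cells in the member differences was not tested.

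**Figure D5:**
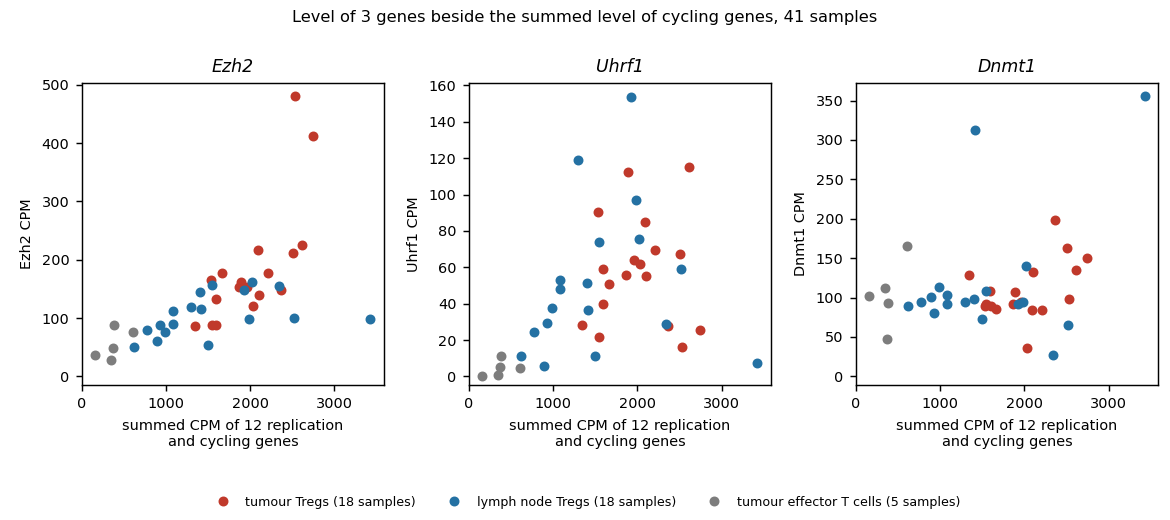
CPM of Ezh2, Uhrf1 and Dnmt1 in each of 41 samples against the summed CPM of 12 replication and cycling genes. Every Treg sample lies at or above 619 CPM on the horizontal axis and every effector sample at or below 609 CPM. Uhrf1 is higher in all tumour Treg samples than in the effector samples, while the Dnmt1 levels of both overlap.

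Further genes of the same pathways were read from lists chosen with earlier results known. The counts of these lists stand beside 11.2% of all genes called in either direction, in the tissue comparison and against effector cells alike. Of 27 other polycomb subunits and enzymes, 3 were higher in tumour than in lymph node Tregs: Aebp2, a cofactor of the Ezh2 complex (log2 fold change 1.07, SE 0.19, adjusted p = 3.74e-05), Kdm2b, which brings a variant polycomb complex to CpG-rich DNA (1.13, SE 0.34, adjusted p = 0.0227), and Pcgf2, a ring-finger paralog of Bmi1 (1.96, SE 0.67, adjusted p = 0.0468). Aebp2 was 181 to 513 CPM in tumour Tregs, against 82.3 to 320 CPM in lymph node Tregs. Cbx7, a reader of the H3K27 mark (-0.88, SE 0.22, adjusted p = 0.00463), and Mtf2, which recruits the Ezh2 complex (-0.80, SE 0.26, adjusted p = 0.0332), were lower in the tumour. Against effector cells only Aebp2 of the 27 passed, as higher in tumour Tregs (0.97, SE 0.30, adjusted p = 0.0249). The list medians were -0.03 and -0.17.

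Of 25 other subunits of deacetylase complexes, 0 were higher and 3 lower in tumour than in lymph node Tregs, near the 11.2% of all genes called. They were the NuRD remodeller Chd3 (log2 fold change -1.45, SE 0.22, adjusted p = 2.29e-06), the NuRD subunit Mbd3 (-1.34, SE 0.32, adjusted p = 0.00242) and the Sin3 complex subunit Arid4a (-0.61, SE 0.20, adjusted p = 0.0391). Chd3 was 62.2 to 239 CPM in tumour Tregs, against 192 to 1176 CPM in lymph node Tregs. Against effector cells Chd3 (-1.49, SE 0.30), Arid4a (-0.97, SE 0.29) and the NCoR subunit Tbl1x (-2.32, SE 0.59) were lower and the Sin3 subunit Sap30 (5.00, SE 1.32, adjusted p = 0.00683) was higher in tumour Tregs. Sap30 was 0.159 to 49.7 CPM in tumour Tregs, against 0 to 1.24 CPM in effector cells, so its fold change is poorly fixed by the low counts.

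Among 13 tested readers and repair genes of DNA methylation, Gadd45b, a stress-induced gene linked to DNA demethylation, was higher in tumour than in lymph node Tregs (log2 fold change 2.05, SE 0.45, adjusted p = 0.000977), and Zbtb4, a methyl-CpG binding protein, was lower (-1.05, SE 0.34, adjusted p = 0.0350). Gadd45b was 35.8 to 122 CPM in tumour Tregs, against 0.901 to 39.3 CPM in lymph node Tregs and 0 to 17.4 CPM in effector cells. Against effector cells Gadd45b (3.17, SE 0.81) and Hells (2.29, SE 0.60), a remodeller needed for DNA methylation, were higher in tumour Tregs. Usp7, a deubiquitinase that stabilises Uhrf1 and Dnmt1 (-1.35, SE 0.25, adjusted p = 0.000107), and Zbtb4 (-1.46, SE 0.47) were lower. Hells was 14.5 to 116 CPM in tumour Tregs, against 2.86 to 21.0 CPM in effector cells.

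Of the enzymes opposed to the deacetylases, 0 of 13 histone acetyltransferases passed with edgeR in either comparison, against 11.2% of all genes. At that share a list of 13 genes may hold no call. At an unadjusted p below 0.05, 1 passed in the tissue comparison and 2 against effector cells. Their list median log2 fold change was -0.15 between tissues and -0.36 against effector cells. Of 8 genes of NAD supply, on which sirtuins depend, Nampt, the rate-limiting enzyme of NAD salvage, was higher in tumour than in lymph node Tregs (1.22, SE 0.32, adjusted p = 0.00672). Against effector cells Cd38, which consumes NAD (3.70, SE 0.95, adjusted p = 0.00585), and Naprt1, which makes NAD from nicotinic acid (4.51, SE 1.31, adjusted p = 0.0158), were higher in tumour Tregs. Of 8 partners of the class IIa deacetylases, Ywhae, a phosphoprotein-binding adaptor that holds them in the cytoplasm, was higher between tissues (0.75, SE 0.18) and against effector cells (0.94, SE 0.29). Prkd2, a kinase that phosphorylates class IIa deacetylases, was lower in both (-1.01, SE 0.22, and -1.16, SE 0.31).

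The third comparison asked whether the enzymes differ with Nrp1 status. In 8 contrasts between genotypes, 4 in each tissue (N, HetNrp1def and HetWT over WT, and HetNrp1def over HetWT), edgeR called 0 of 33 members and 0 of 14668 genes (0%) in each. At an unadjusted p below 0.05, 291 to 376 of all genes in a tumour contrast and 599 to 952 in a lymph node contrast passed. Among members that number was 0 in every tumour contrast and in N over WT in the lymph node, 1 in HetWT over WT, 3 in HetNrp1def over WT and 4 in HetNrp1def over HetWT in the lymph node. The genotype contrasts were wide: the median halfwidth of the 95% interval over members was 1.503 to 1.69 on the log2 scale for each contrast, wider than a difference of 2-fold (1 on that scale).

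The de novo methyltransferase Dnmt3a had the smallest p among members. In HetNrp1def lymph node Tregs it was 75.3, 54.3, 566 and 130 CPM in replicates 2, 4, ds1 and ds2, against 53.6, 40.02, 18.2 and 64.2 CPM in HetWT and 71.6, 51.1, 71.9, 17.8 and 51.1 CPM in WT lymph node Tregs (replicates 2, 3, 4, ds1 and ds2). The ds1 sample stood apart as the highest of the HetNrp1def samples, while the ds1 samples of HetWT and WT were the lowest of theirs. The HetNrp1def ds1 library also had the lowest TMM factor (0.552) and a sum of NK cell markers of 834 CPM, against at most 42.8 CPM in any other sample. The log2 fold change was 2.23 over HetWT (SE 0.64, adjusted p = 0.493) and 1.97 over WT (SE 0.58, adjusted p = 0.456) with edgeR, and 0.98 and 0.70 without that library. DESeq2 called it in both (2.76, adjusted p = 0.00606, and 2.53, adjusted p = 0.0106), with Sirt5 (3.69, adjusted p = 0.0425) and Sirt6 (-2.50, adjusted p = 0.0339) in HetNrp1def over HetWT. DESeq2 called 2.44% of all genes over HetWT and 1.79% over WT. Sirt5 was 4.22, 2.77, 83.8 and 12.5 CPM in HetNrp1def lymph node Tregs, in the same replicate order, against 5.14, 3.64, 0.230 and 3.60 CPM in HetWT, and without the HetNrp1def ds1 library its edgeR value was 1.02, against 3.02 with it.

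None of the 6 genes that passed in the other comparisons passed between genotypes. Over WT, N tumour Tregs had log2 fold changes of -0.01 for Ezh2 (SE 0.44), 0.14 for Uhrf1 (SE 0.75), -0.39 for Tet1 (SE 1.005), 0.53 for Tet3 (SE 0.51), -0.70 for Hdac2 (SE 0.54) and -0.11 for Ncor1 (SE 0.32). HetNrp1def tumour Tregs over HetWT had -0.15 for Ezh2 (SE 0.50) and 0.31 for Uhrf1 (SE 0.84). The interval for Ezh2 in N over WT ran from -0.91 to 0.90 on the log2 scale. Tests of whether the tissue difference itself depended on genotype (N against WT, and HetNrp1def against HetWT) called 0 of 33 members and 0% of all genes with edgeR, with 455 and 571 genes at an unadjusted p below 0.05, and DESeq2 called 0 members and 17 and 33 genes.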

How the data were processed

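The authors deposited raw counts for each gene symbol. Per the submitters' processing notes, reads were mapped to mm10, with STAR and featureCounts named as tools. They also deposited a filtered, normalized log2 table of 10832 genes, for which limma is named there. Tool versions, annotation and strand setting were not given in the sources used here. In the deposited log2 table every replicate number has the same mean for each gene, and Hdac11 is missing from it. Counts were the basis of all main tests.

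Libraries of 1 group whose counts differed by a chi-square per degree of freedom below 5 were summed (4 pairs at 2.42 to 2.75, the other 86 pairs at 68.4 or above): ds1 with 4 in the HetNrp1def and HetWT tumour groups, and 3 with 4 in the HetNrp1def and HetWT lymph node groups. The sums were numbered 4 and taken as single-sorted, which left 4 samples for each heterozygous group and 5 for every other group. Genes were filtered with filterByExpr by group and fitted with edgeR 4.0.16 in R 4.3.3 (TMM, robust quasi-likelihood, 9 group coefficients, 32 residual degrees of freedom, Benjamini-Hochberg within each contrast over 14668 genes, adjusted p below 0.05). The code was tested on simulated data. Alternatives were RLE size factors, no filter, DESeq2 1.42.0, all 45 libraries, a replicate block, single-sorted or double-sorted samples alone, limma 3.58.1 on the deposited log2 values, and each sample left out. Leaving out the ds2 libraries, or the ds1 libraries that had not been summed, was added after seeing the data. The reasons were that ds2 libraries were shallow and ds1 TMM factors ran from 0.552 to 0.820. The ds1 libraries of the HetNrp1def and HetWT tumour groups stayed in, summed into replicate 4, both there and among single-sorted samples.

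All members are named, with values per sample for those called in the averaged tissue or effector contrast, and at most 5 called genes of each companion list by smallest p. Members, lists and the limit of 5 were chosen with earlier results of these data known. Tdg and Klra8 were not tested and Trac was not found, and Naprt is the row Naprt1. Same-numbered samples deviated together in every pair (r over 0.1, 4 pairs each) for HetNrp1def against HetWT (lowest r 0.143), HetNrp1def against WT (0.117) and HetWT against WT (0.117) in the lymph node. The same held for N against HetNrp1def in the lymph node (0.104). It also held across tissues for N tumour against HetNrp1def (0.1055) and HetWT (0.104) lymph node samples. This pairing was read from the values and not the labels. Motifs were searched in RefSeq windows by exact letters.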

Additional observations from a re-analysis of the deposited data

Results flagged for a closer look

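Within groups of 4 or 5 samples, 1 sample stood far from the others in 6 of 54 gene and group combinations of the 6 genes that passed a test. Chance gives about 1 in 20 for normally distributed values, which CPM need not be, and all 6 were high values. Ezh2 stood at 480 CPM in N tumour ds1 (the others 88.9 to 161 CPM) and at 412 CPM in WT tumour ds1 (the others 88.1 to 177 CPM). Ncor1 stood at 765 CPM in WT tumour ds1 (the others 379 to 461 CPM). Uhrf1 stood at 154 CPM in WT lymph node replicate 3 (the others 29.4 to 58.8 CPM), Tet1 at 32.5 CPM in HetWT lymph node replicate 2 (the others 4.80 to 8.99 CPM) and Tet3 at 291 CPM in N lymph node ds1 (the others 79.6 to 126 CPM). In 4 of the 6 the sample was a ds1 library, from WT tumour, N tumour or N lymph node, with TMM factors of 0.820, 0.791 and 0.731. The ds1 samples as a whole had TMM factors of 0.552 to 0.820, against 0.797 to 1.22 in all other samples.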

How the results depend on the processing

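In the averaged tissue comparison, 4 members passed in the fit as reported, against 11.2% of all genes. With the share of all genes in brackets, 6 passed among single-sorted samples alone (12.8%) and 6 without the unsummed ds1 libraries (17.1%). The count was 1 without the filter on low counts (6.41%), 1 with limma on the deposited log2 values (9.44%) and 1 without the ds2 libraries (6.69%). With 1 sample left out, 1 to 4 passed. Against effector cells it was 5 as reported (11.2%), 1 with limma on the deposited log2 values (4.19%), 3 without the ds2 libraries (6.55%) and 8 without the unsummed ds1 libraries (16.8%). For WT Tregs alone it was 3 as reported (5.71%) and 0 with limma on the log2 values (0.535%). The share of all genes thus moved with the setting as well. DESeq2 called 2 members in the HetNrp1def tissue contrast and made 4 calls of 3 members over the 8 genotype contrasts, against 0 with edgeR in each. The cause of these changes was not tested. No difference that passed in the fit as reported turned its direction. Double-sorted samples left 1 sample in each heterozygous tumour group, assumed to vary like the others. With the replicate block, 3 members passed between tissues (Hdac2 was lost, adjusted p = 0.0661), 5 against effector cells and 3 for WT alone. Of all genes, the block called 0 in each of the 8 genotype contrasts. In the tissue contrast of WT Tregs it called 2.60% of all genes, against 0.873% in the fit as reported. Between the tissues of a set, same-numbered samples did not deviate together by r over 0.1 in every pair. The lowest r was 0.09998 in N, 0.0137 in HetNrp1def, -0.03 in HetWT and -0.15 in WT. The highest, in each set that of the ds2 samples, was 0.33 in N, 0.38 in HetNrp1def, 0.33 in HetWT and 0.41 in WT. Of the values of single genes, 619 kept their side of the threshold, 29 lost it and 10 gained it under other settings, and 2669 kept it and 37 lost it with 1 sample left out. RLE size factors moved the median of all genes between tissues to -0.10. Hdac8, Hdac9, Hdac11 and Sirt3 to Sirt5, all of low level, had standard errors of 0.60 to 0.81 between tissues.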
